A study of Mus musculus with 6 samples.

Results

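The long arm of human chromosome 21, present in an extra copy in Down syndrome, corresponds in the mouse mainly to a stretch of chromosome 16, and Dyrk1a lies inside that stretch. A set of 51 mouse chromosome 16 genes, each the ortholog of a human chromosome 21 gene, was followed in embryonic forebrain with 1 inactive copy of Dyrk1a. The 51 genes, taken by symbol from a given list, were all found among the 33084 genes of the count table, and 50 of them had enough reads for a test, out of 19403 genes tested. Their starts and ends lie between positions 76287400 and 97962622 of chromosome 16 (GRCm38, mm10), a span of 21.68 Mb, with 40 members on the centromeric side of Dyrk1a and 11 on the telomeric side. Dyrk1a itself is not a member and serves as the check of genotype.

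Forebrain RNA from wt and Dyrk1a+/- embryos at 15.5 days post coitum was sequenced in bulk. Each genotype had 3 samples, called biological replicates in the labels. The sample titles do not give the mouse line or say whether a sample is a single embryo or a pool. The labels name no Cre driver, strain or sex, and do not say which part of Dyrk1a is missing, so the mutant group is known only as heterozygous for an inactive allele. Libraries held 18699434 to 32865708 counts. The dorsal forebrain transcription factor Emx1 stood at 20.2 to 34.2 CPM (counts scaled to a common effective library size), whereas the spinal Hox gene Hoxc8 stood at 0.061 to 0.40 CPM and 3 liver genes together at 0.25 to 0.87 CPM. The main split among the libraries was not by genotype. Instead, wt replicate 3 and heterozygote replicate 2 had the largest shares of the non-coding RNAs 7SK, RNase P and RNase MRP (4.46% and 4.0%, against 2.56% to 3.01%). This library pair stood apart from the rest, and differences within that pair and within the 4 other libraries are given for the leading members.

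Genes of this segment are known for very different jobs. App encodes the amyloid precursor protein, Sod1 the cytosolic superoxide dismutase, Dscam a neuronal recognition molecule, Hmgn1 a nucleosome-binding protein, and Son a scaffold of splicing bodies. An extra copy of the segment raises many of these transcripts in trisomic mice, and loss of a copy of DYRK1A, a kinase of cell cycle exit and neuronal growth, causes microcephaly in people. The labels name no altered gene other than Dyrk1a in these embryos, and the comparison asks whether transcripts of the segment differ when a copy of the neighbouring kinase gene is inactive.

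None of the 50 tested members passed the test of a difference between genotypes after adjustment. By edgeR's quasi-likelihood test with Benjamini-Hochberg adjustment over all 19403 genes, 0 members had an adjusted p under 0.05 (lowest 0.526), where 0.0103% of all genes tested did; DESeq2 also called 0 members, against 0.17% of the genes it adjusted. At an unadjusted p under 0.05 there were 6 members, or 12%, beside 7.88% of all genes. App, Bace2 and Nrip1 were lower, beside 4.61% of all genes, and Btg3, Hmgn1 and Sim2 were higher, beside 3.27%. By DESeq2 there were 5 of 51 at that p: App, Bace2, Hmgn1, Nrip1 and the low-count member Cbr3. The share was 3.82% over the 30777 genes given a p by DESeq2, which include genes below edgeR's filter. Among the genes edgeR tested, DESeq2 put 4 of 50 members and 1123 of 19403 genes at that p. At an unadjusted p under 0.01 by edgeR there were 0 of the 50 tested members, beside 1.95% of all genes. Cbr3, which edgeR's filter left out, had an unadjusted p of 0.00395 by DESeq2. As many members lay above the wt level as below it, 25 and 25, beside 51.2% of all genes above, and the median log2 fold change (heterozygote over wt) was -0.0038 over the members and 0.0048 over all genes. The genotypes did not overlap in 8 members, or 16%, beside 14% of all genes. The count of 6 fell to 2 without wt replicate 1 (Btg3 and Sim2), or without heterozygote replicate 3 (Bace2 and Btg3), fits in which 4.11% and 4.25% of all genes reached that p. It rose to 11 with a term for the library pair, a fit in which 15.7% of all genes reached the same p.

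The intervals around the members were narrow for most. In 42 of 50 the 95% interval of the fold change, unadjusted for the number of genes, lay between 0.667 and 1.5, and in 49 it lay above 0.5; the exception was Bace2. The 8 tested members with wider intervals, B3galt5, Bace2, Btg3, Eva1c, Ripk4, Ripply3, Sh3bgr and Sim2, were all below 10 CPM, and at that depth their intervals leave room for differences beyond 1.5-fold.

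Dyrk1a, the inactivated gene, was read at 177, 186 and 160.2 CPM in wt replicates 1 to 3 and at 149, 147 and 158 CPM in heterozygote replicates 1 to 3. Every heterozygote was below every wt library, by a small gap between wt replicate 3 and heterozygote replicate 3. This amounts to 0.868 of wt (log2 -0.20, SE 0.079, with 0.766 to 0.984 as the 95% interval; adjusted p = 0.59 by edgeR with Benjamini-Hochberg adjustment). Dyrk1a therefore did not pass after adjustment, and its interval lay above 0.5 of wt. As a check of genotype, the counts alone were not decisive. Counts were summed over the whole gene, so a transcript that is made but not functional would be included.

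**Figure D1:**
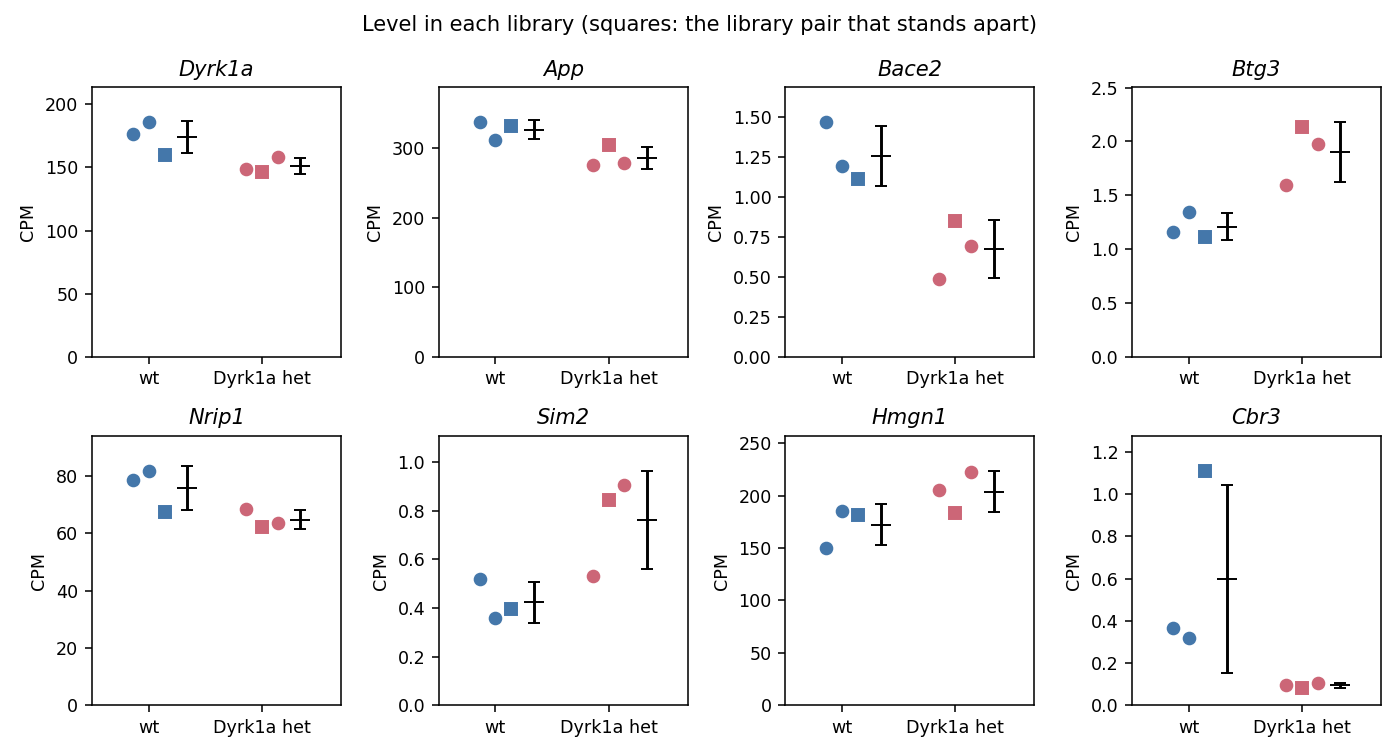
CPM in each library (y axis, from 0) for Dyrk1a, the 6 members at an unadjusted p under 0.05 and Cbr3, in wt (blue) and Dyrk1a+/- (red) forebrain; squares are wt replicate 3 and heterozygote replicate 2, and black bars give mean and SD of 3 libraries. The genotypes are apart in Dyrk1a, App, Bace2, Btg3, Sim2 and Cbr3, and overlap in Nrip1 and Hmgn1.

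Levels of the members differed widely when CPM were divided by exon length. In wt forebrain the highest was the ubiquitin ligase Ttc3, at 92.5 CPM per kb of exon, followed by the junction protein and virus receptor Cxadr (75.6), and by Cct8, a subunit of the cytosolic chaperonin, and Son, at 60.8 each. Hmgn1 (53.5) stood close behind and Paxbp1 (26.9) came next. The wt libraries of Cct8, Son and Hmgn1 overlapped on this scale, so their order is within the spread. Lowest among the tested members were Sim2, a bHLH-PAS transcription factor of the midline, at 0.10 CPM per kb, Bace2 (0.16), Btg3 (0.30) and Sh3bgr (0.30). In CPM, without division by length, 14 members were above 100, 26 between 10 and 100, and 10 of the tested members below 10.

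**Figure D2:**
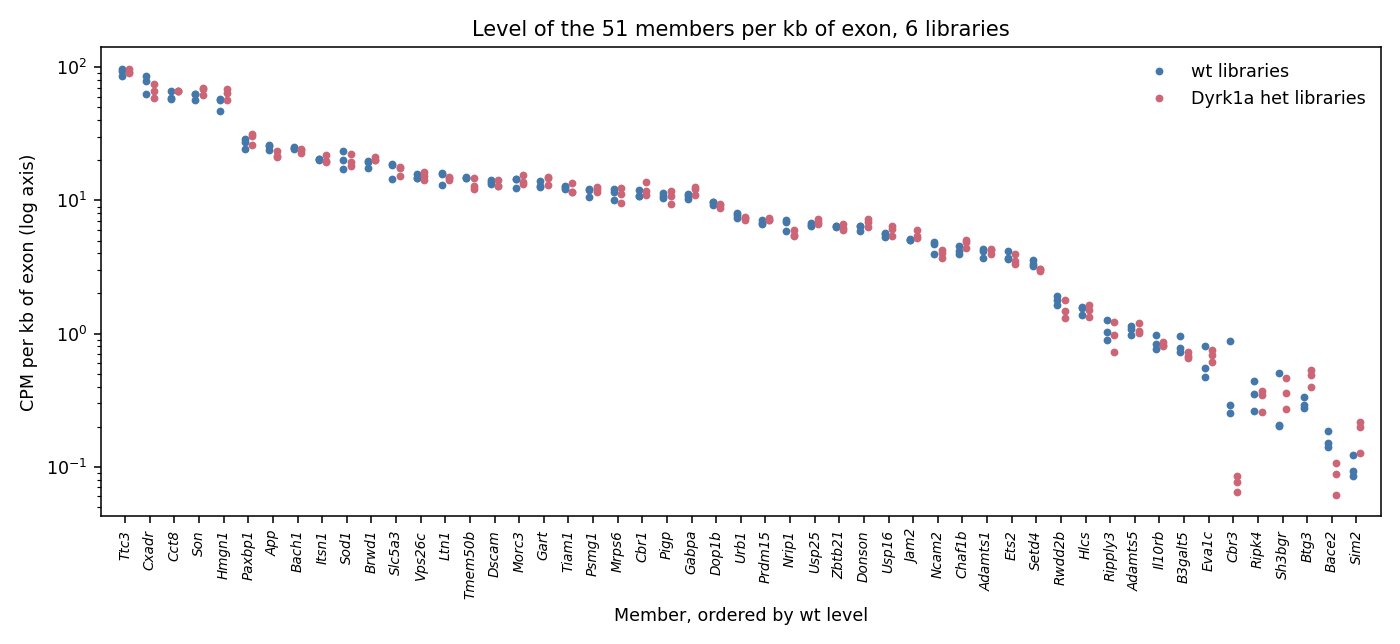
CPM per kb of exon (log axis) of the 51 members in 3 wt (blue) and 3 Dyrk1a+/- (red) libraries, ordered by the wt mean. Ttc3 is highest and Sim2 lowest; blue and red points lie on each other for most members and come apart at the low end, in Cbr3, Btg3, Bace2 and Sim2.

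Summed over the 51 genes, the members gave 6641, 6696 and 6152 CPM in wt replicates 1 to 3 and 6598, 6509 and 6586 CPM in heterozygote replicates 1 to 3. The lowest sum was that of wt replicate 3, and the heterozygotes lay inside the wt range. Ttc3 alone supplied 1399.9 to 1583 CPM of it.

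Surface and adhesion proteins had 5 of 7 members below the wt level, with the lowest median of the role groups, a log2 fold change of -0.18. App was read at 337, 312 and 331 CPM in wt replicates 1 to 3 and at 276, 304 and 278 CPM in heterozygote replicates 1 to 3. All heterozygotes lay below all wt libraries, heterozygote replicate 2 by the least. The fold change was 0.875 (log2 -0.19, SE 0.074, 95% interval 0.780 to 0.983; edgeR's adjusted p = 0.588). An exact permutation test on log2 CPM, taken on both sides, gave p = 0.1, and a design of 3 against 3 can go no lower. Within the library pair the log2 difference was -0.13, and within the 4 others -0.23. In bulk tissue, fewer cells that hold App and less App RNA per cell cannot be told apart.

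Bace2, an aspartyl protease related to the beta-secretase and able to cut the amyloid precursor protein, had the largest difference below wt among tested members, from very low levels. Its values were 1.46, 1.19 and 1.11 CPM in wt replicates 1 to 3 and 0.483, 0.845 and 0.694 CPM in heterozygote replicates 1 to 3, on 153 counts over all libraries. The groups did not overlap, and heterozygote replicate 1 was the lowest of the 6. The fold change was 0.541 with a 95% interval of 0.344 to 0.851 (log2 -0.89, SE 0.288; edgeR's adjusted p = 0.526; exact permutation p = 0.1). The log2 difference was -0.39 within the library pair and -1.18 within the 4 others. The gene lies at chromosome 16, 97356742 to 97442936.

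The other surface proteins were closer to wt. Cxadr had a log2 fold change of -0.18 (SE 0.125) with a wide spread, from 467 to 633 CPM in wt and 436 to 550.4 CPM in heterozygotes, and the lowest library of each genotype was its member of the library pair. Ncam2, an adhesion molecule of olfactory axons, was at 53.1, 54.7 and 45.2 CPM in wt and at 47.9, 45.4 and 41.6 CPM in heterozygotes (log2 -0.18, SE 0.097), with overlap and with a difference of 0.0061 within the library pair against -0.27 within the 4 others. The junctional adhesion molecule Jam2 was above wt without overlap, at 30.2 to 30.8 CPM against 31.8 to 36.3 CPM (log2 0.14, SE 0.083). Dscam, which lets neurites of the same neuron avoid each other, differed little, with 126, 118 and 122 CPM in wt and 114, 126 and 113 CPM in heterozygotes (log2 -0.051, 95% interval 0.858 to 1.09 of wt). The Slit receptor gene Eva1c had 2.33 and 2.60 CPM in wt and heterozygotes.

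Cell type markers lay mostly below wt in each tested list, neurons included, except in that of radial glia and dividing progenitors. Of 7 neuronal markers (Tubb3, Map2, Rbfox3, Snap25, Syt1, Stmn2, Dcx) 6 were below wt and 0 passed edgeR's test after adjustment. At an unadjusted p under 0.05 there were 2 (Syt1, log2 -0.26, and Stmn2, -0.20), or 28.6%. Over all genes the share at that p by edgeR was 7.88%, which applies to each list below. The summed level of the 7 neuronal markers was 5737 to 6232 CPM in wt and 5445 to 5598 CPM in heterozygotes, without overlap, and none of them was at 0. Of 10 markers of radial glia and dividing progenitors 9 were above wt. At an unadjusted p under 0.05 there were 6, or 60.0%, all above wt, and after adjustment 0 by edgeR and 1 by DESeq2. Summed levels were 1273 to 1447 CPM in wt and 1481 to 1735 CPM in heterozygotes, without overlap. Meningeal markers (8 genes) summed to 486 to 571 CPM in wt and 414 to 459.6 CPM in heterozygotes, with 1 of 8 (Ptgds) past edgeR's adjusted threshold. Endothelial markers (7 genes, 5 below wt) summed to 213 to 238 CPM in wt and 202 to 232 CPM in heterozygotes. Erythroid markers (5 genes, all below wt) summed to 702 to 885 CPM and 473 to 700.1 CPM, apart by a small gap. Of these 5, 3 were at an unadjusted p under 0.05 by edgeR, or 60.0%. Below wt were also 6 of 7 microglial, 4 of 5 pericyte and 4 of 5 choroid plexus markers, with sums that overlapped between genotypes. Markers of oligodendrocyte precursors (Pdgfra, Cspg4, Sox10, Olig1 and Olig2) summed to 109.8 to 114 CPM in wt and 77.5 to 96.2 CPM in heterozygotes, also without overlap. Of these 5, 4 were below wt, 3 at an unadjusted p under 0.05 (60.0%) and 0 after adjustment by edgeR or DESeq2. Olig1 and Olig2 are also in the list of other chromosome 16 orthologs given further on. The part of these cell type differences in the members' values was not tested.

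Transcription and chromatin genes, 14 of the 51, went both ways, 8 above and 6 below the wt level, with a median log2 fold change of 0.056. Nrip1, a corepressor of nuclear receptors, was below wt at 78.6, 81.7 and 67.3 CPM in wt replicates 1 to 3 and 68.4, 62.1 and 63.5 CPM in heterozygote replicates 1 to 3 (log2 -0.23, SE 0.09, 95% interval 0.741 to 0.982 of wt; edgeR's adjusted p = 0.591). Heterozygote replicate 1 was above wt replicate 3, so the groups overlapped by that single library, and the exact permutation p was 0.2. Setd4, a SET-domain methyltransferase gene, was below wt without overlap, at 17.4, 19.2 and 17.8 CPM against 15.8, 16.5 and 16.4 CPM (log2 -0.16, SE 0.094). Bach1, a heme-regulated repressor, also did not overlap, with 150.3 to 156 CPM in wt and 139.6 to 149.8 CPM in heterozygotes, but the difference was small (log2 -0.077, SE 0.067).

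Hmgn1 was the abundant chromatin gene furthest above wt. It was read at 150.1, 185 and 182 CPM in wt replicates 1 to 3 and at 206, 183 and 222 CPM in heterozygote replicates 1 to 3. Heterozygote replicate 2 lay within the wt values, and wt replicate 1 was the lowest library. The fold change was 1.18 (log2 0.24, SE 0.106, 95% interval 1.00 to 1.40; edgeR's adjusted p = 0.63). The log2 difference was 0.015 within the library pair and 0.36 within the 4 others, and without 1 library it ran from 0.15 to 0.31. Hmgn1 has many retrocopies in the mouse genome, and the sources used here do not say how reads shared with them were counted.

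Sim2 had the largest fold change above wt among tested members, on few counts. The libraries held 0.519, 0.357 and 0.394 CPM in wt and 0.531, 0.845 and 0.907 CPM in heterozygotes, on 86 counts in all. Heterozygote replicate 1 exceeded wt replicate 1 only slightly, although the groups did not overlap. The fold change was 1.77, with a 95% interval of 1.04 to 3.02 (log2 0.83, SE 0.34; edgeR's adjusted p = 0.613). DESeq2 gave an unadjusted p of 0.132.

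Chaf1b, the p60 subunit of the chromatin assembly factor that loads histones behind replication forks, was at 19.7, 18.7 and 21.2 CPM in wt and 23.8, 22.7 and 20.7 CPM in heterozygotes (log2 0.17, SE 0.099). Brwd1, a bromodomain protein, was at 401, 391 and 358 CPM in wt and 411, 406 and 427 CPM in heterozygotes, without overlap (log2 0.11, SE 0.073). Gabpa, an ETS-family activator of housekeeping and mitochondrial genes, had 63.7, 61.8 and 58.6 CPM in wt and 69.7, 63.0 and 72.2 CPM in heterozygotes, with heterozygote replicate 2 inside the wt range (log2 0.15, SE 0.078). For Ets2, Morc3, Prdm15, Zbtb21, Paxbp1 and Ripply3 the log2 fold changes lay between -0.13 and 0.12, with SE from 0.067 to 0.259.

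**Figure D3:**
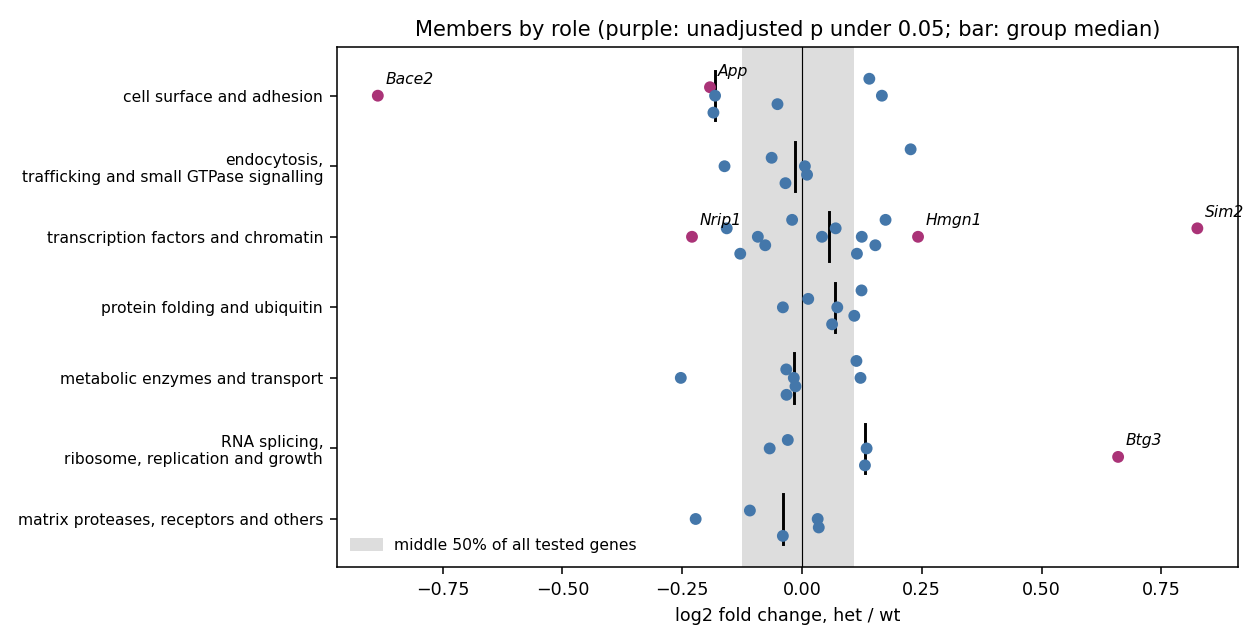
Log2 fold change (x axis, heterozygote over wt) of each tested member by role group (rows), with the group's median as a black bar; purple points are at an unadjusted p under 0.05, and grey marks the middle 50% of all 19403 tested genes, -0.12 to 0.11. Bace2, Btg3 and Sim2, all with few counts, lie far outside the grey band, while the median of the surface and adhesion group is at -0.18 and that of the splicing, ribosome, replication and growth group at 0.13.

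Protein folding and ubiquitin genes were close to wt, 5 of 6 slightly above, with a median log2 fold change of 0.068 and none at an unadjusted p under 0.05. Ttc3 had 1521, 1579.5 and 1399.9 CPM in wt and 1583, 1459 and 1499 CPM in heterozygotes, and its 95% interval was 0.897 to 1.13 of wt. Cct8 stood at 181, 205 and 177 CPM in wt and at 204, 204 and 205 CPM in heterozygotes (log2 0.12, SE 0.077), and wt replicate 2 alone reached the heterozygote level. The deubiquitinases Usp16 and Usp25, the ribosome quality control ligase Ltn1 and the proteasome assembly chaperone Psmg1 had log2 fold changes of 0.11, 0.074, -0.04 and 0.063.

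Among endocytosis, trafficking and small GTPase genes, 3 members lay above and 3 below wt, with none at an unadjusted p under 0.05. Itsn1, a scaffold of endocytosis, averaged 476 ± 7.48 CPM in wt against 478 ± 27.8 CPM with the mutant allele (SD, 3 libraries each). The Rac exchange factor Tiam1 was at 126 ± 3.21 and 123 ± 11.1 CPM, and the log2 fold change of Dop1b was -0.063 (SE 0.067). Tmem50b, a membrane protein of the secretory pathway, had 36.1, 36.5 and 35.9 CPM in wt and 35.9, 29.9 and 31.2 CPM in heterozygotes, so that only heterozygote replicate 1 reached the wt values (log2 -0.16, SE 0.09).

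Metabolic enzymes and transporters were also near wt, with 2 of the 7 tested above it. Sod1 varied between libraries more than between genotypes, at 68.2, 79.7 and 92.7 CPM in wt replicates 1 to 3 and 77.6, 88.4 and 72.2 CPM in heterozygote replicates 1 to 3. The highest library of each genotype belonged to the library pair. The fold change was 0.99, with a 95% interval of 0.819 to 1.20. The inositol transporter Slc5a3 did the opposite, with its lowest values, 158 and 166 CPM, in the library pair, and 190.5 to 205 CPM in the 4 others. Gart, an enzyme of purine synthesis, was at 68.0 ± 3.92 and 73.5 ± 5.29 CPM (SD, 3 libraries each), and the biotin ligase gene Hlcs at 13.5 ± 1.09 and 13.3 ± 1.30 CPM.

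Cbr3, a carbonyl reductase gene next to its paralog Cbr1, was the member that did not pass the filter on low counts. Wt replicates 1 to 3 held 12, 8 and 31 counts (0.366, 0.317 and 1.11 CPM) and each heterozygote held 2 counts (0.0966, 0.0805 and 0.107 CPM). All heterozygotes were below all wt libraries, and wt replicate 3 held most of the wt counts. Counts of 51 in wt and 6 in heterozygotes gave a ratio of 0.157 scaled by library totals (95% interval 0.0551 to 0.366, from exact binomial limits, which cover counting error only), and without wt replicate 3 the ratio was 0.271 (0.0890 to 0.699). Fitted without the filter, edgeR gave an unadjusted p of 0.00114 and an adjusted p of 0.332. Cbr1 was read at 27.7, 30.5 and 27.6 CPM in wt and 28.0, 34.9 and 30.3 CPM in heterozygotes (log2 0.12, SE 0.102). Cbr3 starts 0.887 Mb and Cbr1 0.964 Mb from the start of Dyrk1a.

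In the group of splicing, ribosome, replication and growth genes, 3 of 5 were above wt. Btg3, an antiproliferative gene of the BTG/TOB family, had 1.16, 1.35 and 1.11 CPM in wt replicates 1 to 3 and 1.59, 2.13 and 1.97 CPM in heterozygote replicates 1 to 3, on 226 counts. The groups did not overlap, and heterozygote replicate 1 came nearest to wt. The fold change was 1.58 with a 95% interval of 1.12 to 2.24 (log2 0.66, SE 0.221; edgeR's adjusted p = 0.529; exact permutation p = 0.1). The log2 difference was 0.94 within the library pair and 0.50 within the 4 others. Btg3 overlaps Cxadr, which has 79796 counts, on the opposite strand, and the sources used here do not state the strand setting of the counting, so a share of its reads may come from Cxadr.

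Son was read at 935, 939 and 844 CPM in wt replicates 1 to 3 and at 915, 1040.4 and 1029 CPM in heterozygote replicates 1 to 3, with heterozygote replicate 1 below the wt values of replicates 1 and 2 (log2 0.13, SE 0.081). The replication fork protein gene Donson, which overlaps Son on the other strand, was at 19.6 ± 0.97 and 21.5 ± 1.49 CPM (SD, n = 3 per genotype). Urb1, of ribosome biogenesis, and Mrps6, of the mitochondrial ribosome, had log2 fold changes of -0.067 and -0.03. The extracellular proteases Adamts1 and Adamts5, the interleukin 10 receptor subunit Il10rb, the kinase Ripk4 and Rwdd2b had log2 fold changes between -0.22 and 0.035, none at an unadjusted p under 0.05.

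By distance from Dyrk1a, members above and below wt were found in every bin. Of 11 tested members whose start lies within 1 Mb of that of Dyrk1a, 6 were above and 5 below wt, with a median log2 fold change of 0.011. Cbr3, at 0.887 Mb, would be in this bin but was not tested. Its counts were 51 in wt and 6 in heterozygotes, and it is left out of the bins and correlations here. Of 24 members at 1 to 5 Mb, 11 were above and 13 below (median -0.017), and of 15 members farther away, 8 were above and 7 below (median 0.033, but -0.18 over the 5 members beyond 10 Mb); the median of all 544 tested genes of chromosome 16 was 0.01. The nearest members on the centromeric side were Vps26c (0.043 Mb), of an endosomal recycling complex, Pigp (0.198 Mb), of GPI anchor synthesis, and Ttc3 (0.199 Mb). Vps26c was at 54.2, 54.1 and 58.2 CPM in wt and 60.0, 55.7 and 51.9 CPM in heterozygotes, and Pigp at 22.7, 21.4 and 20.8 CPM in wt and 23.4, 18.8 and 21.4 CPM in heterozygotes. On the telomeric side the nearest were Ets2 (1.13 Mb), Psmg1 (1.42 Mb) and Brwd1 (1.51 Mb), with log2 fold changes of -0.092, 0.063 and 0.11. Across the 50 members, the log2 fold change and the distance had a Pearson r of -0.0081 and a Spearman rho of -0.088, given as a description of genes measured in the same 6 libraries.

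**Figure D4:**
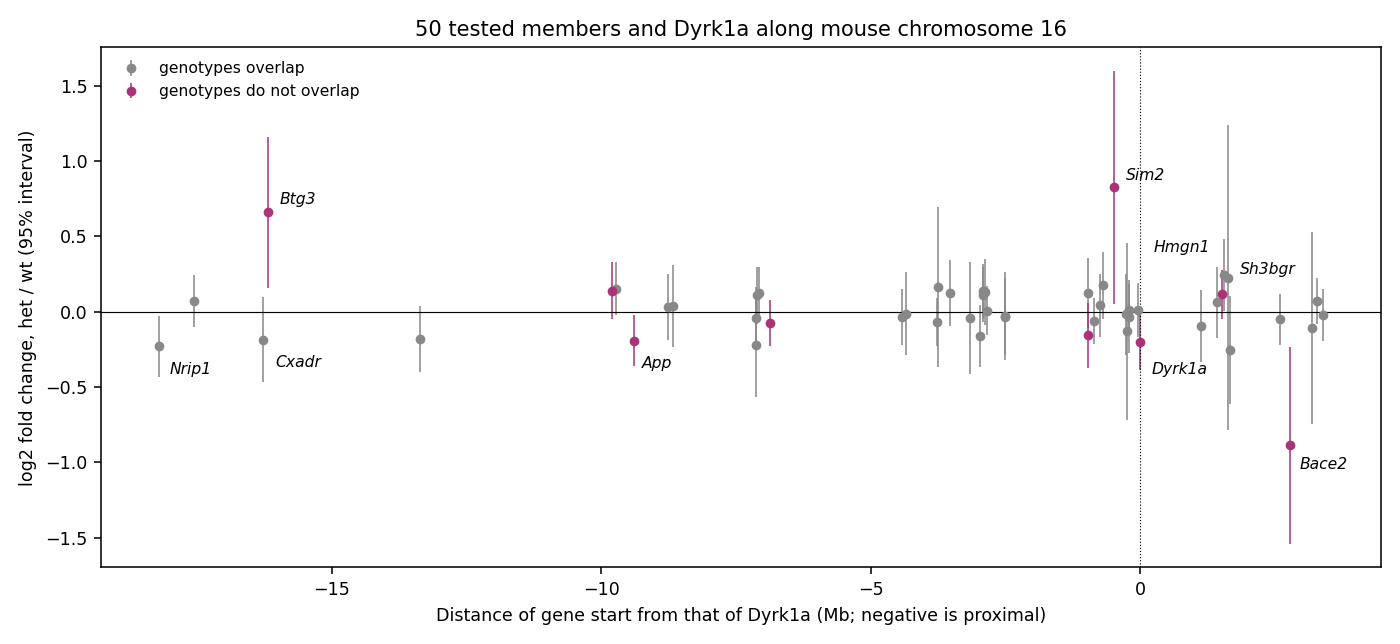
Log2 fold change (y axis, heterozygote over wt) with its 95% interval for 50 tested members and Dyrk1a, by distance of the gene start from that of Dyrk1a in Mb (x axis, negative towards the centromere; dotted line at Dyrk1a); purple marks genes whose genotypes do not overlap. Most intervals cross 0 at every distance, and the 3 points farthest from 0 (Bace2, Sim2 and Btg3) lie at 2.79, 0.485 and 16.2 Mb. Cbr3, which was not tested, is not drawn.

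Some members start close together, and their values were set side by side. Gart and Son start 554 bases apart on opposite strands and had log2 fold changes of 0.11 and 0.13. Ttc3 and Pigp overlap head to head, with starts 1224 bases apart, and had 0.013 and -0.033. Setd4 and Cbr1 start 1790 bases apart, also head to head, and had -0.16 and 0.12, on opposite sides of wt. Mrps6 and Slc5a3 begin 52 bases apart on the same strand and had -0.03 and -0.032, but reads of their shared part cannot be assigned to either.

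Upstream sequences of 41 members were found in the RefSeq promoter table (GRCm38.p6). Windows of the 250 bases before each RefSeq start were searched on both strands for the ETS motif CCGGAAGT. GABPA, the product of a member, binds this motif. It was found in windows of 4 members, Cct8, Setd4, Usp16 and Vps26c, and of 3.23% of all genes in the table. These 4 had log2 fold changes of 0.12, -0.16, 0.11 and 0.011, beside 0.15 for Gabpa. The sequences are shown 5′ to 3′ on the strand of each gene with the motif in capitals, written ACTTCCGG where it lies on the other strand, and are cut to 30 bases where an annotated exon lies near. Cct8 (minus strand, chr16:87495874-87495998), Setd4 (minus strand, chr16:93603816-93603973), Usp16 (plus strand, chr16:87454955-87454984) and Vps26c (minus strand, chr16:94526755-94526784) read:
Cct8: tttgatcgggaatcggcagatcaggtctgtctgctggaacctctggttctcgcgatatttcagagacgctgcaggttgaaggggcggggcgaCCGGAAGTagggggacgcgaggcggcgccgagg
Setd4: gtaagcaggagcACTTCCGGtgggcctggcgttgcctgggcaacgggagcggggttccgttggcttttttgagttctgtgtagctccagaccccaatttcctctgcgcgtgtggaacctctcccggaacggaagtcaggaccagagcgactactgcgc
Usp16: ttcccacaatgccgcgttCCGGAAGTtgcc
Vps26c: ttcctgctatcACTTCCGGaaacccacctc
The motif begins 37, 146, 12 and 144 bases before a RefSeq start in Cct8, Setd4, Usp16 and Vps26c. The GENCODE starts used for distances differ from these. By the GENCODE starts the motif lies upstream in Cct8 alone, and inside the gene in Setd4, Usp16 and Vps26c. The stretch printed for Setd4 then lies within the gene, outside annotated exons.

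A palindrome bound by NRF1, another regulator of housekeeping genes, lay in windows of 3 members, Paxbp1, Pigp and Ttc3, and of 0.877% of all genes in the table. By the GENCODE starts it lies inside the gene in all 3. The same copy, at chr16:94370729-94370738, is in the Ttc3 window and in some of the several Pigp windows. Levels of these genes differ widely: Ttc3 was at 92.5 and Pigp at 10.9 CPM per kb of exon in wt. The palindrome is in capitals in 30 bases of the Pigp strand (chr16:94370719-94370748) and of Paxbp1 (minus strand, chr16:91044495-91044524), printed to show the shared copy.
Pigp and Ttc3: ggcttagggtGCGCATGCGCagtcgccgcg
Paxbp1: gagagcccagGCGCATGCGCaatcgaggcg
Paxbp1, a PAX-binding protein gene, was at 150.1, 159.8 and 134 CPM in wt replicates 1 to 3 and 167, 144 and 173 CPM in heterozygote replicates 1 to 3 (log2 0.12, SE 0.096), with overlap. The palindrome to which DYRK1A is known to be recruited was in the windows of 0 of the 41 members and of 0.448% of all genes in the table.

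Other mouse orthologs of human chromosome 21 genes, from lists made by textbook synteny, gave the same count after adjustment. Of 35 tested genes of chromosome 16 outside the members, Dyrk1a included, 0 passed edgeR's test over all genes. At an unadjusted p under 0.05 there were 4, or 11.4%, beside 7.88% of all genes. All 4 were below wt, beside 4.61% of all genes. They were Grik1, a kainate receptor subunit (log2 -0.27, SE 0.088), Olig1, of the oligodendrocyte lineage (-0.41, SE 0.151), the potassium channel gene Kcnj6 (-0.27, SE 0.119) and Dyrk1a. The median of the 35 was -0.0078, with 16 above and 19 below wt. Of 27 tested orthologs on chromosome 10, 0 passed and 4 were at an unadjusted p under 0.05, or 14.8%, beside 7.88% of all genes. Pcnt, a centrosome scaffold, was above wt (log2 0.26, SE 0.081), and Col6a1 (-0.32), Itgb2 (-0.86) and Lrrc3 (-0.33) were below. Of 12 tested orthologs on chromosome 17, 0 passed and 0 were at an unadjusted p under 0.05 by edgeR, with 1 by DESeq2. The 63 other tested genes lying within the span of the members had 42 above and 21 below wt, with a median of 0.053. That is 66.7% above, beside 51.2% of all genes. None passed, and 6 were at an unadjusted p under 0.05, or 9.52%, beside 7.88% of all genes. This set leaves out Dyrk1a but not the other chromosome 16 orthologs inside the span, so the 2 sets overlap.

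Across the 6 libraries, the library pair set some members apart more than genotype did. In 25 of 50 members the absolute log2 difference between the pair and the 4 other libraries exceeded that between genotypes, against 60.1% of all genes tested. Cxadr (-0.31), Slc5a3 (-0.29), Paxbp1 (-0.22) and Morc3 (-0.18) were lower in the pair, and Sod1 (0.29), Rwdd2b (0.26) and Ets2 (0.20) higher, in log2 CPM. The difference between genotypes had the same sign within the pair and within the 4 others in 31 of 50 members. Median coefficients of variation over 3 libraries were 7.54% in wt and 7.16% in heterozygotes.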

How the data were processed

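The members, the role groups and the lists of orthologs and markers were chosen with earlier results of these data known. The deposited values are raw counts per Ensembl gene, 1 column per library. Per the submitters' processing notes, bcl2fastq 2.17.1.14, HISAT2, SAMtools 1.9 and HTSeq 0.9.1 were used with GRCm38/mm10; the sources used here name no annotation release or strand setting, so overlapping genes may share reads. Per the labels, the kit was stranded, for total RNA depleted of ribosomal RNA, while the molecule is given as polyA RNA. Symbols, starts and exon lengths came from GENCODE M21 (32888 of 33084 identifiers). The promoter windows used RefSeq starts. In R 4.3.3, genes were kept by filterByExpr, scaled by TMM (factors 0.9944 to 1.0034) and fitted with edgeR 4.0.16 on genotype alone, with Benjamini-Hochberg adjustment over 19403 genes and a threshold of 0.05; DESeq2 1.42.0 was an alternative. Standard errors and 95% intervals came from the quasi-likelihood F. Single genes were compared by exact 2-sided permutation of log2(CPM + 0.01) over the 20 divisions of 6 libraries. Data were simulated from these libraries with 50 genes changed at each of 1.5-, 2-, 3- and 4-fold (19117 genes tested). On these data edgeR recovered 34% of 1.5-fold and 82% of 2-fold changes. In the measured libraries edgeR called 2 genes, and recovery with fewer changed genes than in the simulation was not tested. Between any 2 libraries, chi-square over its degrees of freedom was 4.86 to 32.4, so none was a copy. The labels do not say whether embryos shared a litter. The p-values set the genotype difference against the variation among these 6 libraries, in which any part due to litter is not known.

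Named were Dyrk1a, the 12 members of lowest unadjusted p, the 3 nearest to Dyrk1a on each side, the 4 highest and 4 lowest per kb, App, Sod1, Dscam, Hmgn1, Son and the member that failed the filter; others are named within their role groups. The promoter motifs, the close starts and the forebrain check genes were chosen after the data were seen.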

Additional observations from a re-analysis of the deposited data

How the results depend on the processing

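Fits with other size factors, tests, filters, robust fitting, a term for the library pair, the 4 other libraries alone and each library left out all gave 0 members past the threshold. Over all genes edgeR called 2, but 4 without the low-count filter, 6 with the pair term, 6 on the 4 other libraries, 0 with a replicate block and 0 to 5 with 1 library left out; DESeq2 called 27. Members at an unadjusted p under 0.05 numbered 6 in the main fit. The count was 11 with the pair term (15.7% of all genes) and 2 with the replicate block (5.72%). With 1 library left out it ran from 2 to 6 (4.11% to 10.5%). At a limit of 0.01 the main fit, which did not test Cbr3, had 0 (1.95%). The member median of -0.0038 was -0.023 with upper-quartile scaling, -0.026 without the filter, 0.021 on the 4 other libraries and 0.0035 to 0.026 with 1 library left out. With bins at 2 and 10 Mb the farthest bin, then 5 genes, had a median of -0.18, not 0.033. The cause of these shifts was not tested. Same-numbered libraries did not pair (correlations of deviations 0.20, -0.32 and -0.16). Of the 50 tested members 33 kept their sign in every fit that held them. Of the 25 named genes, chosen in part by low p, 21 did. Near 0, Vps26c was -0.0091 (upper quartile) and -0.0012 (no filter), and Ttc3 was -0.0059 (upper quartile). On the 4 other libraries Pigp was 0.023, Ttc3 -0.0064 and Sod1 0.022. With 1 library left out Vps26c ran from -0.044 to 0.059, Pigp from -0.11 to 0.049, Ttc3 from -0.034 to 0.049 and Sod1 from -0.12 to 0.10. Depth limits the members below 10 CPM.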
